A study of Oryza sativa with 4 samples.

Results

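Methylation of cytosine in plant DNA is copied and placed by methyltransferases with different sequence contexts and is removed by DNA glycosylases. MET1 enzymes copy CG methylation after replication, the chromomethylases CMT3 and CMT2 act on CHG and CHH sites in chromatin marked by histone H3 lysine methylation, and DRM2 places methylation where small RNAs guide it (H is A, C or T). DDM1 is a chromatin remodeller that gives the methyltransferases access to heterochromatin, and ROS1 proteins excise methylated cytosine so that an unmethylated base replaces it. In rice, which carries several copies of most genes of this machinery, DNA methylation silences transposons in leaves and other tissues.

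The levels of 9 rice genes of this machinery were described, of 37858 gene IDs in the table. They were picked by locus ID from a list of the pathway, with no threshold on their levels, although earlier results of these data were known: the methyltransferases MET1-1 (Os03g0798300), MET1-2 (Os07g0182900), CMT3a (Os10g0104900), CMT2 (Os05g0224800) and DRM2 (Os03g0110800), the remodellers DDM1a (Os09g0442700) and DDM1b (Os03g0722400), and the demethylases ROS1a (Os01g0218032) and ROS1c (Os05g0445900). The table holds IDs alone, and the names are those supplied with the list. A RefSeq gene table of another rice assembly held 5 of the 9 names (MET1-1, MET1-2, CMT3a, DRM2 and ROS1c), each on the chromosome that the digits after Os give. It pairs none of the 9 IDs with a name, so for these 5 only the chromosome was compared and no locus was matched. The other 4 names were not checked at all.

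RNA was sequenced from leaves of the cultivar Nipponbare, the japonica rice of the reference genome. Leaves were from the progeny of seeds given a heat treatment (heated 1 and 2) and of control seeds (control 1 and 2). Control 1 carries a treatment label of 25 °C, and control 2 and both heated libraries carry 30 °C. The labels give no plant age, no length of treatment and no word on whether replicates or leaves were pooled, so the p-values rest on the spread of these libraries, which may be technical. Expected counts per library totalled between 15444235 and 17298384. In leaf RNA, fewer cells using a gene and less RNA per cell cannot be told apart. The 2 controls differed more than the 2 heated libraries: at least a 1.5-fold gap separated the controls in 18.9% of tested genes and the heated libraries in 8.57%. No annotated leaf marker was at hand, so the tissue label was not checked.

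None of the 9 genes was called different between heated and control progeny. Of the 9, 6 had enough counts to be tested, and 0 of these 6 were called at a Benjamini-Hochberg adjusted p under 0.05 (edgeR quasi-likelihood test), where 0.699% of all 22184 tested genes were called (0.248% higher and 0.451% lower). At an unadjusted p under 0.05 the count among the 6 was also 0, against 9.23% of all genes. The 6 comprised MET1-2, CMT2, DRM2, DDM1b, ROS1a and ROS1c. Their fitted log2 fold changes ranged from -0.30 for DDM1b to 0.11 for MET1-2, with 3 above and 3 below 0. The median of the 6 was -0.10 and that of all tested genes was 0.0061. The median size of the change was 0.16 for the 6 and 0.20 for all genes. For 5 of the 6, all but MET1-2, the 95% interval of the fold change lay inside a 2-fold change in either direction. The smallest change called in any gene was 1.01 on the log2 scale, so no change below 2-fold was called anywhere in the table.

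**Figure D1:**
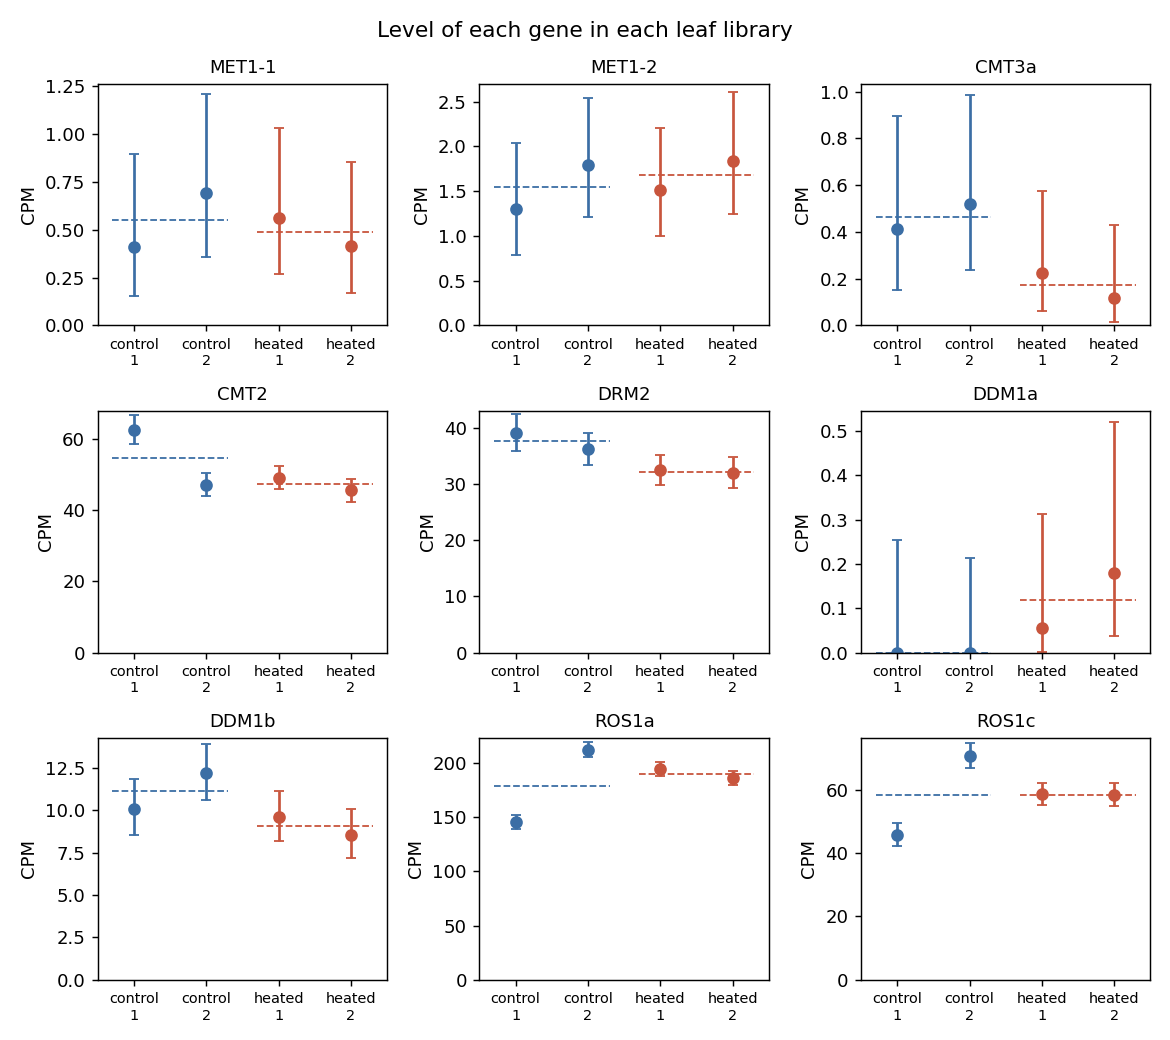
Level of each of the 9 genes in each library, in counts per 1000000 of the scaled library size (CPM), with exact 95% counting intervals (bars) and group means (dashed). ROS1a and ROS1c are lowest and CMT2 is highest in control 1, and MET1-1, CMT3a and DDM1a stay below 1 CPM in every library.

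Among the methyltransferases, CMT2, the chromomethylase of CHH sites in heterochromatin, was measured from 769 to 911 counts per library. It stood at 62.6 CPM in control 1, 47.1 CPM in control 2, 49.1 CPM in heated 1 and 45.6 CPM in heated 2. Control 1 was the high library, and control 2 lay between the heated libraries, so the groups overlapped. Mean levels of CMT2 were 54.8 ± 10.9 CPM (control) and 47.3 ± 2.46 CPM (heated; SD, n = 2). The log2 fold change of CMT2 was -0.21 (SE 0.17, 95% interval -0.63 to 0.21), with an edgeR adjusted p of 0.781. Without control 1 it was 0.0032, and without control 2 it was -0.42, with an edgeR adjusted p of 0.0811. Over all alternatives for this contrast the adjusted p of CMT2 ran from 0.0811 to 1.00.

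DRM2, the methyltransferase of the small RNA-directed pathway, stood at 39.0 and 36.2 CPM in control 1 and 2 and at 32.4 and 32.0 CPM in heated 1 and 2. Both heated libraries lay below both controls. Of the 6 tested genes, 2 (DRM2 and DDM1b) had both heated libraries below both controls and 0 had them above, against 19.5% and 21% of all tested genes, or 40.5% in either direction. Control leaves averaged 37.6 ± 2.02 CPM of DRM2 and heated leaves 32.2 ± 0.313 CPM (SD, n = 2). The log2 fold change of DRM2 of -0.22 (SE 0.14, 95% interval -0.55 to 0.11) did not pass the test, with an edgeR adjusted p of 0.699. In every library DRM2 had a fractional count, which means that RSEM divided some of its reads with another gene. The decimals of 1 other ID, the adjacent Os03g0110700, summed with those of DRM2 to whole numbers in all 4 libraries. That ID held 14.87, 3.20, 8.12 and 12.58 expected counts, in the order control 1, control 2, heated 1, heated 2, against 568.13, 626.80, 578.88 and 539.42 for DRM2. The sums were 583, 630, 587 and 552, so DRM2 held most of each sum. How many of the DRM2 reads were shared cannot be read from expected counts. On the summed row, an alternative added after seeing the data, the log2 fold change was -0.22 as well.

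MET1-2, a rice copy of the enzyme that maintains CG methylation, was scarce but tested. Its counts were 19 and 31 in control and 27 and 31 in heated leaves, which is 1.30, 1.79, 1.51 and 1.84 CPM. The groups overlapped, with control 1 lowest and heated 2 highest. For MET1-2 the log2 fold change was 0.11 (SE 0.41; edgeR adjusted p = 0.959). Its 95% interval of the fold, from 0.541 to 2.15, leaves a 2-fold rise within the range of the data. The direction turned without control 1 (-0.10) and without heated 2 (-0.035).

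The other MET1 copy and CMT3a were too scarce to be tested. MET1-1 counts were 6 and 12 in control and 10 and 7 in heated leaves, or 0.412, 0.692, 0.560 and 0.415 CPM. Its summed heated counts stood at 0.868 times those of control after scaling, with an exact 95% counting interval of 0.420 to 1.78. CMT3a, a chromomethylase of CHG sites, was counted 6 and 9 times in control and 4 and 2 times in heated leaves, or 0.412, 0.519, 0.224 and 0.119 CPM. Both heated libraries of CMT3a were below both controls, as in 19.5% of tested genes, a set that leaves out genes this scarce. Its count of 2 in heated 2 was below 3 counts, the limit that a count of 0 allows. The summed heated counts of CMT3a stood at 0.367 times those of control, and the exact 95% counting interval of 0.117 to 1.00 reached an even ratio. This interval covers counting error only. Fitted with no filter on low counts, CMT3a had a log2 fold change of -1.40 and an edgeR adjusted p of 0.835. No difference of CMT3a was thus shown at this depth, and its cause was not tested.

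Of the remodellers, DDM1b was the copy with counts above the limit that a count of 0 allows in every library. Its counts were 147 and 211 in control and 171 and 143.97 in heated leaves, or 10.1, 12.2, 9.58 and 8.54 CPM. Both heated libraries lay below both controls, but the gap to control 1 was narrow, and with CPM on total counts without TMM heated 1 (9.89 CPM) was above control 1 (9.52 CPM). Control leaves averaged 11.1 ± 1.47 CPM of DDM1b and heated leaves 9.06 ± 0.737 CPM (SD, n = 2). DDM1b had the largest fitted change of the 6 tested genes, a log2 fold change of -0.30 (SE 0.21, 95% interval -0.81 to 0.21), and an edgeR adjusted p of 0.744. Of all tested genes, 64.9% had a smaller change. Without control 2 the value of DDM1b was -0.17, smaller in size than those of CMT2 (-0.42) and DRM2 (-0.29) in that fit, and without control 1 it was -0.43.

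DDM1a was listed at 0 in both controls, which allows up to 0.206 CPM in control 1 and 0.173 CPM in control 2 (3 counts). The two-sided exact 95% intervals in the plot of levels end higher, at 0.253 and 0.213 CPM. Its expected count was 1 in heated 1, below the limit of 3 counts, and 3.03 in heated 2, at that limit, so no fold is given. DDM1a thus took 0 of 147 and 0 of 211 counts of the DDM1 pair in the controls, which allows a share of up to 2.04% and 1.42% (3 counts), or 2.55% and 1.79% as the upper ends of the Wilson 95% intervals. In the heated libraries it took 0.581% (Wilson 95% interval 0.103% to 3.22%) and 2.04% (0.696% to 5.83%). The Wilson intervals of all 4 libraries overlap. In heated 2 the counts of DDM1a and DDM1b (3.03 and 143.97) summed to a whole number, and both genes had whole counts in the other libraries. Of 5348 other IDs with a fractional count in heated 2, 188 completed the decimals of DDM1a to within 0.015. Those IDs were not checked for whole counts in the other libraries. Whether DDM1a and DDM1b shared reads was not tested.

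The demethylases differed more between the controls than between the groups. ROS1a, a glycosylase that removes methylated cytosine, stood at 145 CPM in control 1, 212 CPM in control 2, 194 CPM in heated 1 and 186 CPM in heated 2. Control 1 was the low library, and both heated libraries lay between the controls. ROS1a rested on 2118 to 3673 counts per library, so counting error was small: control 2 was at 1.46 times the level of control 1, with an exact 95% counting interval of 1.38 to 1.54, and heated 2 at 0.954 times heated 1 (0.909 to 1.00). Mean levels of ROS1a were 179 ± 47.0 CPM (control) and 190.0 ± 6.26 CPM (heated; SD, n = 2). The log2 fold change of ROS1a was 0.088 (SE 0.20, 95% interval -0.40 to 0.58), with an edgeR adjusted p of 0.930.

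ROS1c, another copy of the glycosylase, stood at 45.8 CPM in control 1, 70.7 CPM in control 2, 58.6 CPM in heated 1 and 58.3 CPM in heated 2. Its libraries fell in the same order as those of ROS1a. Control 2 of ROS1c was at 1.54 times control 1 (exact 95% counting interval 1.40 to 1.7), and heated 2 at 0.996 times heated 1 (0.912 to 1.09). The log2 fold change of ROS1c was 0.0043 (SE 0.21, 95% interval -0.51 to 0.52), with an edgeR adjusted p of 0.998. ROS1c had fractional counts in all 4 libraries, and no single ID completed its decimals. ROS1a had whole counts throughout.

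Leaving out 1 control turned the direction of both demethylases. Without control 1, the log2 fold changes of ROS1a and ROS1c were -0.16 and -0.28. Without control 2 they were 0.37 and 0.34. None of these passed the edgeR test, with adjusted p-values of 0.811, 0.499, 0.119 and 0.143, and the lone control was assumed to vary like the heated pair.

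**Figure D2:**
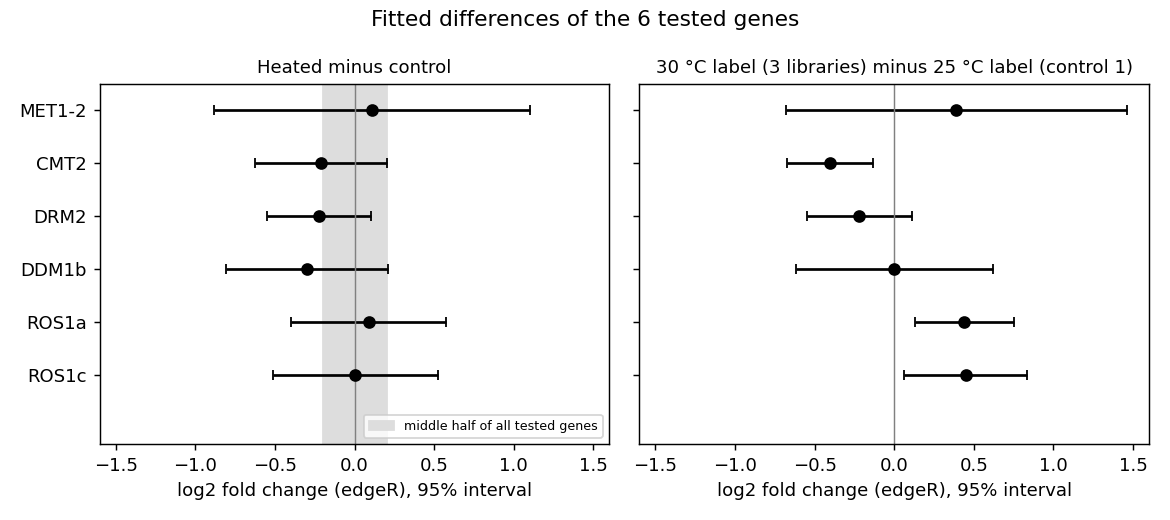
Fitted log2 fold changes of the 6 tested genes with 95% intervals (edgeR), for heated minus control (left) and for the libraries labelled 30 °C minus control 1, the library labelled 25 °C (right). On the left all 6 intervals include 0, and the grey band spans the quartiles of all tested genes (-0.20 to 0.20); on the right the intervals of CMT2, ROS1a and ROS1c leave out 0, but they take their spread from the 3 libraries labelled 30 °C alone and no gene passed the adjusted test (lowest adjusted p 0.131, edgeR).

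Control 1 was the lowest library for 3 of the 6 tested genes (MET1-2, ROS1a and ROS1c) and the highest for 2 (CMT2 and DRM2). Control 1 was lowest in 34.9% and highest in 33.8% of all tested genes, so standing at an end was common. Grouped by the treatment label, control 1 was compared with the other 3 libraries, from whose spread the error was taken. With 7 of the 9 genes tested in that fit, 0 were called at an edgeR adjusted p under 0.05, against 0.747% of 23285 genes. For 3 of the 7 genes the unadjusted p was under 0.05, where 21.3% of all genes had one.

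These 3 genes were CMT2, ROS1a and ROS1c. CMT2 stood at 62.6 CPM in control 1 and at 47.2 ± 1.74 CPM in the libraries labelled 30 °C (SD, n = 3), a log2 difference of -0.40 (SE 0.11) and an edgeR adjusted p of 0.131. ROS1a stood at 145 CPM against 197 ± 13.4 CPM (SD, n = 3), a log2 difference of 0.44 (SE 0.12) and an edgeR adjusted p of 0.142. ROS1c stood at 45.8 CPM against 62.5 ± 7.06 CPM (SD, n = 3), a log2 difference of 0.45 (SE 0.15) and an edgeR adjusted p of 0.191. The 25 °C label and control 1 as a single library cannot be told apart. The label of control 2 may also be an entry error, which was not tested.

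**Figure D3:**
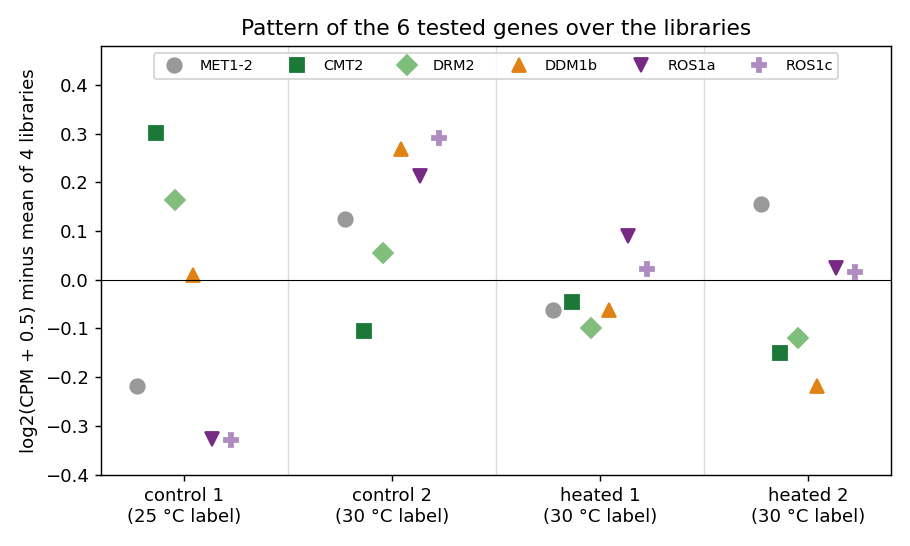
Level of the 6 tested genes in each library on the log2(CPM + 0.5) scale, minus the gene's mean over the 4 libraries; markers are set side by side within a library. In control 1 ROS1a and ROS1c both lie at -0.33 and CMT2 at 0.30, while in the heated libraries all 6 genes lie between -0.22 and 0.16.

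How alike the genes were was measured by the largest gap between their centred log2(CPM + 0.5) values over the 4 libraries. ROS1a and ROS1c were each other's nearest gene among the 6, with a gap of 0.077. Of all tested genes, 0.825% lay as near to ROS1a and 0.478% as near to ROS1c. CMT2 and DRM2 were each other's nearest, with a wider gap of 0.16. Of tested genes, 9.19% lay as near to CMT2 and 13.8% as near to DRM2. DRM2 was also nearest to DDM1b, at 0.21, and ROS1a was nearest to MET1-2, at 0.15. As near to DDM1b lay 9.02% of tested genes, and as near to MET1-2 lay 7.59%. Outside the list, the genes most like DDM1b were Os03g0264150 (gap 0.015) and Os03g0119700 (gap 0.018), neither of them annotated in the table. With 4 libraries these gaps are a description.

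Ratios of counts inside a library do not depend on how libraries are scaled. They do depend on gene length, which was not at hand, so they are compared across libraries only, and levels are not ranked between genes. The ratio of ROS1a to ROS1c counts was 3.18 in control 1, 3.0 in control 2, 3.32 in heated 1 and 3.18 in heated 2, with exact 95% counting intervals that all overlapped. In other terms, ROS1a took between 75% and 76.8% of the counts of the pair in the 4 libraries. Overlap of the ratio intervals does not show 1 shared proportion. The ratio of control 2 (3.0) lay below the interval of heated 1 (3.10 to 3.56). These intervals also leave out how RSEM divided the fractional ROS1c counts. ROS1a and ROS1c together ran from 191 CPM in control 1 to 283 CPM in control 2, with 253 and 244 CPM in the heated libraries.

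The ratio of ROS1a to CMT2 counts was 2.32 in control 1 (exact 95% counting interval 2.15 to 2.52). It was 4.50 in control 2 (4.17 to 4.86), 3.96 in heated 1 (3.68 to 4.27) and 4.07 in heated 2 (3.76 to 4.41). Control 1 stood apart from the other 3 libraries, whose intervals overlapped one another. The same held for ROS1c to CMT2, at 0.732 in control 1 against 1.5, 1.19 and 1.28, except that there the interval of control 2 (1.37 to 1.64) lay above that of heated 1 (1.09 to 1.31). The ratio of ROS1a to DRM2 was 3.73 in control 1 against 5.86, 5.99 and 5.81. Between CMT2 and DRM2 the ratio was 1.6, 1.30, 1.51 and 1.43, and the intervals of control 1 (1.44 to 1.78) and control 2 (1.17 to 1.45) overlapped at their ends only. Ratios to DDM1b fell in other orders. The ratio of ROS1a to DDM1b was 14.4 in control 1 (12.2 to 17.1), 17.4 in control 2 (15.1 to 20.1), 20.3 in heated 1 (17.4 to 23.8) and 21.7 in heated 2 (18.4 to 25.9). There the controls overlapped each other, and both heated libraries were above both controls, an order seen in 21% of single tested genes. No such share was computed for ratios. The interval of control 1 lay below those of both heated libraries, and the interval of control 2 overlapped them. The ratio of CMT2 to DDM1b was 6.20, 3.87, 5.12 and 5.34, with control 2 lowest. These ratios were chosen after the levels were seen.

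**Figure D4:**
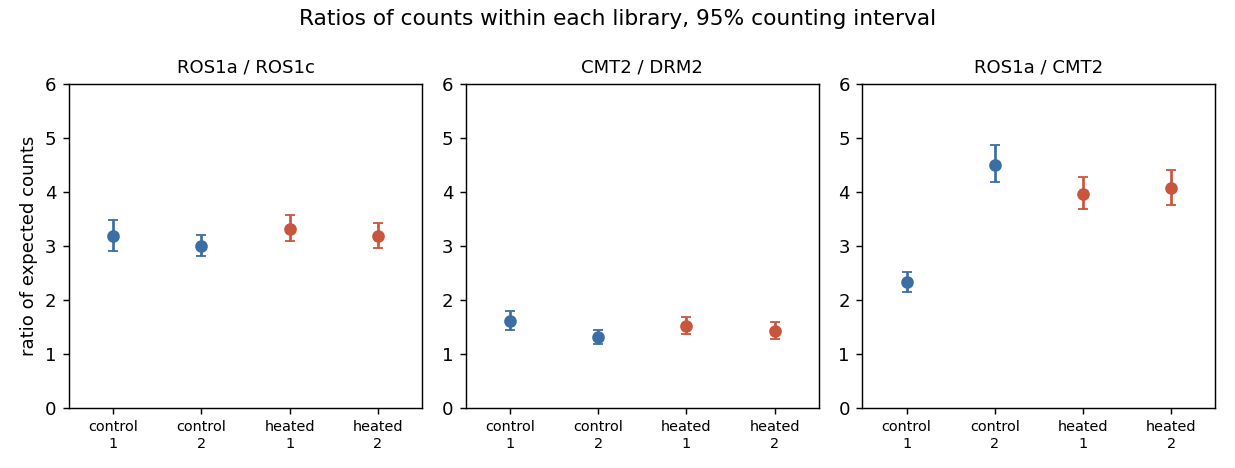
Ratio of expected counts of 2 genes within each library, with exact 95% counting intervals, on 1 shared linear axis from 0. ROS1a to ROS1c stays between 3.0 and 3.32, while ROS1a to CMT2 is 2.32 in control 1 and 3.96 to 4.50 in the other libraries.

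The share of MET1-1 in the counts of the MET1 pair was 24.0% in control 1, 27.9% in control 2, 27.0% in heated 1 and 18.4% in heated 2. Each share came from 25 to 43 counts, and the Wilson 95% intervals spanned from 9.22% to 43.4% and all overlapped. Summed over their class, the 5 methyltransferases stood at 104 and 86.2 CPM in control 1 and 2 and at 83.8 and 80.0 CPM in heated 1 and 2. The sums of both heated libraries were below those of both controls, an order seen in 19.5% of single tested genes. The heated sums lay below control 2, the lower control, by less than the gap between the controls. CMT2 and DRM2 made up nearly all of this sum.

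**Figure D5:**
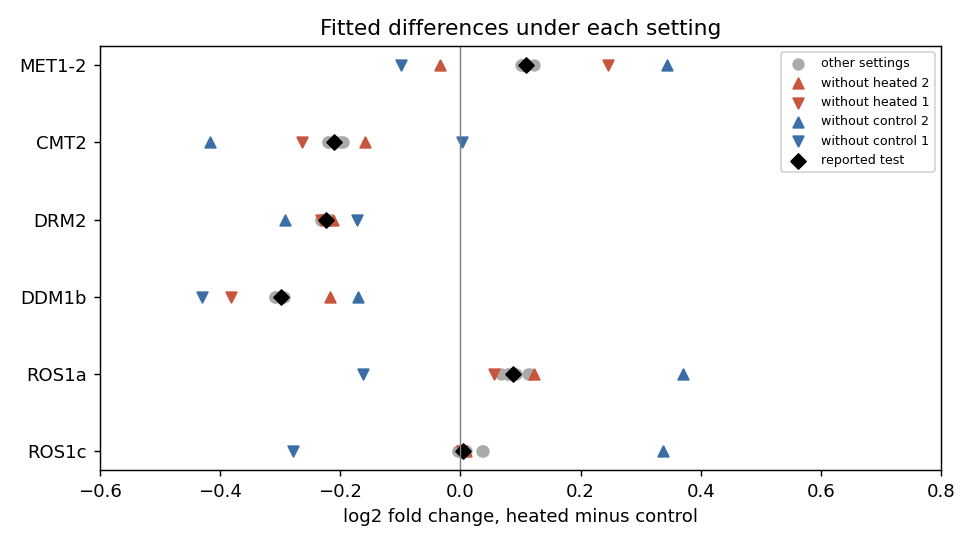
Log2 fold changes, heated minus control, of the 6 tested genes in the reported test (diamonds), without each library in turn (triangles) and under the other settings (grey). DRM2 and DDM1b stay below 0 in every setting drawn, while ROS1a, ROS1c and MET1-2 lie on both sides of 0. CMT2 lies below 0 except without control 1, where it is 0.0032.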

How the data were processed

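Poly(A) RNA of 4 leaf libraries was sequenced in paired ends after a strand-marking library kit, per the labels' protocols. The authors deposited expected counts per gene ID, not normalized, per the file headers from RSEM. The submitters' processing notes name FastQC 0.11.7, Trimmomatic, Bowtie2, RSEM, edgeR 3.26.3 and the build IRGSP-1.0. For settings, annotation and strand, the sources used here give nothing. The table had 0 columns of other samples.

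Rounded counts of all 4 libraries were fitted by edgeR 4.0.16 (quasi-likelihood; R 4.3.3), with group by title as single term, filterByExpr (minimum count 10, minimum total 15), TMM scaling and Benjamini-Hochberg adjustment over all 22184 tested IDs. CPM are unrounded counts per 1000000 of the scaled library size. Standard errors are the log2 fold change divided by the square root of F. Intervals for counts, ratios and shares (exact or Wilson, 95%) and limits of 3 counts are for counting error alone. Simulated counts were used to check the fit. An exact permutation test of 2 against 2 cannot go below p = 0.333 and was not used.

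The 9 genes and the lists were chosen with earlier results of these data known. All 9 are named; the genes most like the one with the largest fitted change were named by the smallest gap in pattern. Of 15 further IDs listed as related genes and markers, 0 were found in the reference table (assembly ASM3414082v1), so none is reported. Only 1 of all 37858 gene IDs was found there, so this does not show that the 15 genes lack annotation. No sequence is shown because none was at hand. Alternatives covered scaling, filters, limma-voom (limma 3.58.1), the exact test of edgeR, DESeq2 1.42.0, unrounded counts, a replicate block, grouping by treatment label and leaving out each library; summed rows were added after seeing the data.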

Additional observations from a re-analysis of the deposited data

How the results depend on the processing

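In each of the 13 alternatives 0 of the listed genes were called. The count over all genes was 155. It became 419 with no filter, 551 with the DESeq2 Wald test, 732 with edgeR's exact test and 532 with a replicate block, and ranged from 64 to 2506 when 1 library was left out (504 without control 1, 2506 without control 2, 64 without heated 1). Of 80 log2 fold changes of the 6 tested genes under an alternative, 72 kept their direction without a call, 8 reversed and 0 became called. MET1-2 reversed without control 1 (-0.0995) and without heated 2 (-0.0346), CMT2 (0.0032), ROS1a (-0.162) and ROS1c (-0.278) without control 1, and DDM1b (0.00079) by treatment label. ROS1c also reversed with DESeq2's size factors in edgeR (-0.0045) and the DESeq2 Wald test (-0.0037), all near 0. Leaving out 1 library gave -0.10 to 0.344 for MET1-2, -0.417 to 0.0032 for CMT2, -0.43 to -0.17 for DDM1b, -0.162 to 0.371 for ROS1a and -0.278 to 0.338 for ROS1c, with the end opposite to that without control 1 found without control 2 in each. The cause was not tested. DRM2 stayed between -0.29 and -0.17, and its adjusted p between 0.217 and 1.00. Across genes, the replicate 2 minus replicate 1 differences of control and heated correlated at -0.0145, and the labels do not say that the numbers mark a shared batch, so they were not taken to pair libraries; with the replicate block DDM1b had -0.294, and 0 of the listed genes were called. On total counts without TMM, 2 of 18 group means moved by more than their SD, DRM2 (33.0 CPM) and ROS1c (59.9 CPM) in heated leaves. The share of ROS1a in its pair could not be recomputed without fractional libraries, because all 4 are fractional. Depth limits MET1-1, CMT3a and DDM1a, whose counts were 12 or fewer per library.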
